A study of Mus musculus with 9 samples.

Results

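The ABL kinases, BCR and the adaptor proteins around them were examined as a group of 10 genes of the 50686 with deposited counts. The genes are Abl1, Abl2, Bcr, Crkl, Gab2, Grb2, Sos1, Cbl, Dok1 and Dok2, which were chosen by name for their place in BCR/ABL signalling, by a rule that used none of their values, though earlier results of these data were known. RNA-seq counts came from 9 libraries of mouse bone marrow cells of the C57BL/6N background that had been transformed by BCR/ABLp185. There were 3 cell lines, labelled wt, Stat5a-/- (Stat5a knocked out) and Stat5b-/- (Stat5b knocked out), with 3 technical replicates of each, and every line carried the BCR/ABLp185 oncogene. Because each genotype was 1 line, a test between genotypes compares 3 lines, and genotype and line cannot be told apart. The p-values measure only the spread between technical replicates.

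BCR/ABL is the fusion kinase of Philadelphia chromosome-positive leukemia, in which the first part of BCR holds the ABL1 kinase in a constantly active state. The adaptor GRB2 binds the BCR part and brings in the exchange factor SOS1, which activates RAS, and the docking protein GAB2, which leads to PI3-kinase. CRKL is a major substrate of the kinase, CBL is a ubiquitin ligase that marks active kinases for removal, and DOK1 and DOK2 are adaptors that restrain RAS signalling.

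Reads of the oncogene may be counted as Abl1 or Bcr, so the exon borders that face each other in a p185 fusion are shown first. A p185 fusion joins the first exon of BCR to ABL1 from its second exon on. The 3 sequences below are the mouse exon borders on the plus strand of GRCm38, with 45 bases on each side of the splice. Capitals mark the side of the border that a p185 fusion keeps. In Bcr the capitals are chr10:75062266-75062310, at the end of the first exon, and the lower case letters are chr10:75125024-75125068, at the start of the next exon. In Abl1 the capitals are chr2:31778334-31778378, at the start of the second exon, which follows either of 2 first exons, the nearer ending with chr2:31760071-31760115 and the farther with chr2:31689898-31689942.
Bcr: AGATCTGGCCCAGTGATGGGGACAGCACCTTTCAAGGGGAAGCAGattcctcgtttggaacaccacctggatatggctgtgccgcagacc
Abl1 with the nearer first exon: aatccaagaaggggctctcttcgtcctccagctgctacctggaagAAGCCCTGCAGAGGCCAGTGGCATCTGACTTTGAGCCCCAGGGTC
Abl1 with the farther first exon: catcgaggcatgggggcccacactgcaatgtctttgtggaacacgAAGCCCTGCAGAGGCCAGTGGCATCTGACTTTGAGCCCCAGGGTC
Both Abl1 transcripts had the same 45 bases in capitals, and differed in the exon before them. The part kept in a p185 fusion made up 6313 of the 11596 counted exon bases of Abl1 (54.4%) and 1719 of the 8191 of Bcr (21.0%). These are all exon bases on the kept side of the border, untranslated ones included. How many of them the inserted oncogene holds was not tested. The deposited counts are 1 number for each gene, so the reads of the endogenous genes and of the oncogene cannot be told apart. The species of the inserted BCR/ABL sequence is not given in the sources used here, and the share of oncogene reads in the counts was not tested.

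**Figure D1:**
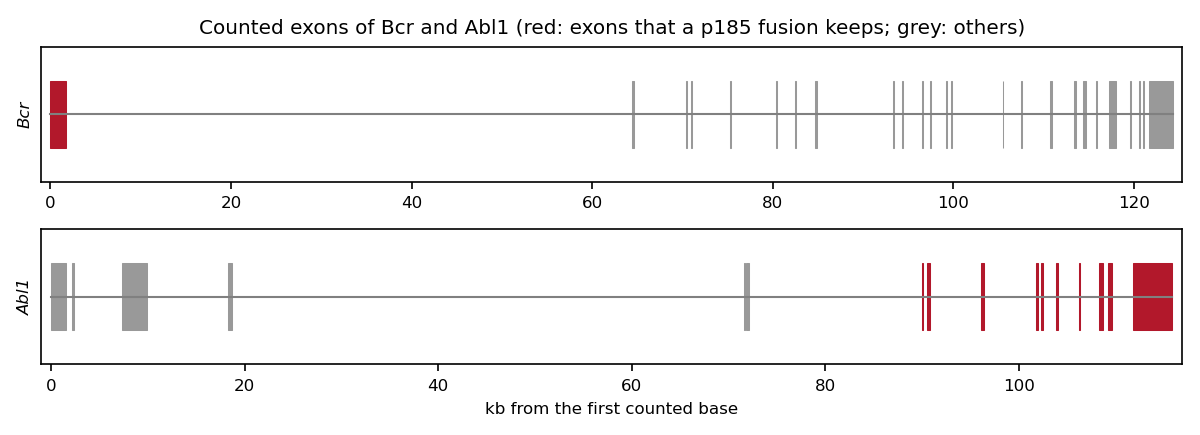
Exons of Bcr (top) and Abl1 (bottom) over which reads were counted, by distance in kb from the first counted base, with exons kept in a p185 fusion in red and the others in grey. Red covers 1719 of 8191 exon bases in Bcr and 6313 of 11596 in Abl1.

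Libraries held between 11948136 and 19016396 counted reads, and the counts of replicates within a line were farther apart than counting error gives, at a chi-square per degree of freedom of 4.63 to 27.99. Stat5a had 43.1 normalized CPM (read counts scaled to a common library total) in wt and 12.4 in Stat5a-/-, and its log2 fold change was -1.80 (SE 0.14, adjusted p = 4.69e-07 by the quasi-likelihood test of edgeR, with Benjamini-Hochberg adjustment). Stat5b had 105.5 normalized CPM in wt and 63.4 in Stat5b-/-, so that reads of the gene remained in the line labelled Stat5b-/-, and its log2 fold change was -0.73 (SE 0.11, adjusted p = 1.69e-04 by the same edgeR test). The 15 B-lineage markers summed to 6756 to 7374 normalized CPM in wt, 9201 to 10097 in Stat5a-/- and 7951 to 9034 in Stat5b-/-. Of these 15, 8 rose and 4 fell in Stat5b-/- against wt (24.2% and 22% of all genes tested), and 8 rose and 3 fell in Stat5a-/- (19.8% and 16.3%). Rag1 and Rag2, the recombinase genes, chosen after their values were seen, had means of 64.7 and 32.5 normalized CPM in wt, 0.158 and 0.0767 in Stat5a-/- and 0.667 and 0.677 in Stat5b-/-. The 10 myeloid markers summed to 4.10 to 6.77 in wt, 4.80 to 6.64 in Stat5a-/- and 9.77 to 11.04 in Stat5b-/-, with 2 to 5 of them at 0 in each library, and of the 2 that could be tested both rose in Stat5b-/- against wt (24.2% of all genes) and 0 in Stat5a-/- (19.8% of all genes). The 17 T-cell markers, none of which was at 0, summed to 697 to 962 in wt, 1268 to 1452 in Stat5a-/- and 1620 to 2319 in Stat5b-/-. These 3 ranges do not overlap, so this sum and the line cannot be told apart, nor can bulk RNA tell more cells of a type from more RNA per cell.

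All 10 genes passed the filter on low counts. In Stat5b-/- against wt, 6 of the 10 rose (Abl1, Bcr, Dok1, Cbl, Crkl and Grb2), 1 fell (Sos1) and 3 did not pass an adjusted p of 0.05. Of all 13852 genes tested, 24.2% rose and 22% fell by the same rule. In Stat5a-/- against wt, 4 rose (Abl1, Bcr, Dok1 and Dok2), 2 fell (Abl2 and Gab2) and 4 did not pass, where 19.8% of all genes rose and 16.3% fell. Between the knockout lines, 4 genes were higher in Stat5b-/- (Abl1, Abl2, Bcr and Crkl), 1 was lower (Sos1) and 5 did not pass, where 16.4% of all genes were higher and 17.5% lower. The median log2 fold change of the 10 genes was 0.34 in Stat5b-/- against wt, 0.15 in Stat5a-/- against wt and 0.20 between the knockout lines, and that of all genes tested was 0.02, 0.01 and 0.02. The first 2 comparisons share the wt libraries. With a fold change above 2 required as well, 3 genes rose in Stat5b-/- (Abl1, Bcr and Dok1; 10.6% of all genes rose and 8.44% fell by this rule), and 1 rose in Stat5a-/- (Dok1; 7.75% of all genes rose and 6.49% fell). Between the knockout lines none of the 5 genes called by edgeR was past 2-fold, nor was any of the 5 called by DESeq2, where 4.81% of all genes were higher and 6.6% lower past 2-fold by edgeR. Abl1 was past 2-fold there with an offset for GC content (log2 fold change 1.12) and with the summed T-cell markers as a covariate (1.24).

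**Figure D2:**
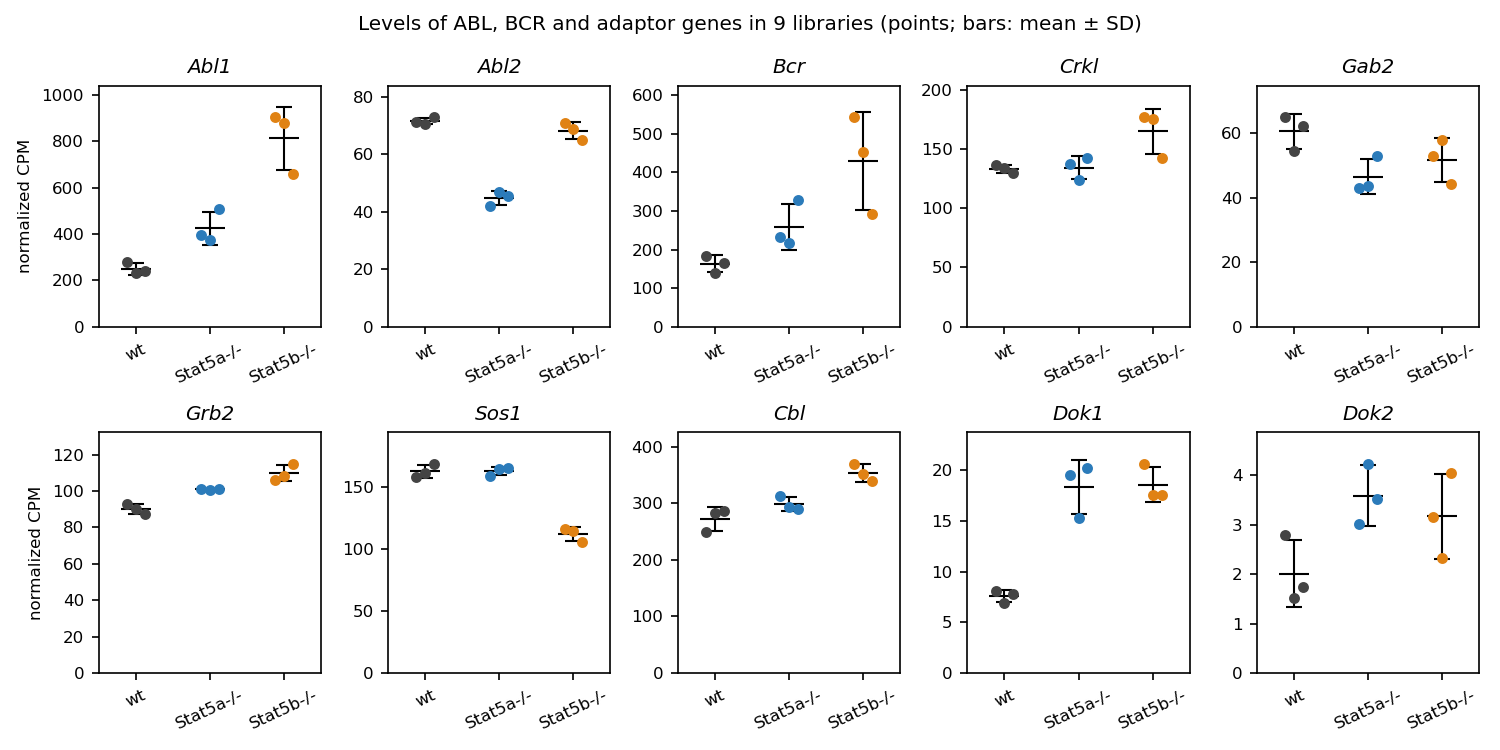
Normalized CPM of the 10 genes (vertical axes, from 0, each panel on its own scale) in the libraries of wt (grey), Stat5a-/- (blue) and Stat5b-/- (orange), with points for libraries and bars for the mean ± SD. The 3 Stat5b-/- libraries of Abl1 lie between 658 and 904, above every other library, and those of Sos1 lie between 105.6 and 115.6, below every other library.

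Abl1, the kinase gene of the fusion (ENSMUSG00000026842.16, GRCm38 chromosome 2 from 31688376 to 31804227), differed between all 3 lines. It had 279, 231 and 238 normalized CPM in the wt libraries, 394, 373 and 506 in the Stat5a-/- libraries and 904, 881 and 658 in the Stat5b-/- libraries. The 3 lines did not overlap, with every Stat5b-/- library above every Stat5a-/- library and every Stat5a-/- library above wt. Abl1 was 3.26-fold higher in Stat5b-/- than in wt, a log2 fold change of 1.71 (SE 0.15, adjusted p = 1.09e-06 by the same edgeR test). It was 1.70-fold higher in Stat5a-/- than in wt (log2 fold change 0.77, SE 0.15, adjusted p = 0.00119 by edgeR) and 1.92-fold higher in Stat5b-/- than in Stat5a-/- (log2 fold change 0.94, SE 0.15, adjusted p = 3.23e-04 by edgeR). These 3 calls held in all 17 alternatives of processing, but their size moved. The log2 fold change lay between 1.60 and 2.375 in Stat5b-/- against wt, 0.55 and 1.14 in Stat5a-/- against wt and 0.85 and 1.24 between the knockout lines, each time highest with the summed T-cell markers as a covariate. Of its counted exon bases, 94 (0.811%) are shared with Gm13427 on the opposite strand, and the counting did not use strand.

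Abl2, the paralog of Abl1 that is not part of the fusion (ENSMUSG00000026596.13, chromosome 1 from 156558786 to 156649568), moved otherwise. Its wt libraries had 71.1, 70.6 and 72.8 normalized CPM, its Stat5a-/- libraries 42.1, 46.8 and 45.5, and its Stat5b-/- libraries 70.8, 68.8 and 64.8. Stat5a-/- was the low line, below all libraries of the other lines, while wt and Stat5b-/- overlapped. Abl2 was 1.60-fold lower in Stat5a-/- than in wt (log2 fold change -0.67, SE 0.09, adjusted p = 7.33e-05 by edgeR) and 1.52-fold higher in Stat5b-/- than in Stat5a-/- (log2 fold change 0.60, SE 0.09, adjusted p = 2.70e-04 by edgeR). In Stat5b-/- against wt its log2 fold change was -0.07 (SE 0.09, adjusted p = 0.563 by edgeR). None of the 50-base stretches of the Abl2 transcripts occurred in those of Abl1.

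The ratio of Abl1 to Abl2, taken on reads per kilobase of exon, was 3.66, 3.05 and 3.05 in wt, 8.71, 7.43 and 10.4 in Stat5a-/- and 11.9, 11.9 and 9.45 in Stat5b-/-. Both knockout lines lay above wt in every library and overlapped each other. Against wt, the log2 fold changes of Abl1 and Abl2 were 0.77 and -0.67 in Stat5a-/- and 1.71 and -0.07 in Stat5b-/-. The log2 ratio was 1.77 higher in Stat5b-/- than in wt (SE 0.14) and 1.43 higher in Stat5a-/- than in wt (SE 0.16), each with p = 0.1 in an exact two-sided permutation test. This is the smallest p that 3 against 3 libraries allow, and it was 0.20 after Benjamini-Hochberg adjustment over the 6 ratio comparisons. Between the knockout lines the log2 ratio differed by 0.33 (SE 0.18, exact permutation p = 0.2, adjusted 0.24).

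Bcr (ENSMUSG00000009681.10, chromosome 10 from 75060592 to 75184921), which gives the fusion its first part, followed the order of Abl1. It had 184, 140 and 166 normalized CPM in wt, 232, 216 and 328 in Stat5a-/- and 543, 453 and 291 in Stat5b-/-. Both knockout lines lay above wt in every library, but the lowest Stat5b-/- library, replicate 3, was below the highest Stat5a-/- library, also replicate 3. Bcr was 2.63-fold higher in Stat5b-/- than in wt (log2 fold change 1.40, SE 0.21, adjusted p = 1.40e-04 by edgeR) and 1.59-fold higher in Stat5a-/- than in wt (log2 fold change 0.67, SE 0.21, adjusted p = 0.0245 by edgeR). Between the knockout lines the log2 fold change was 0.73 (SE 0.21, adjusted p = 0.0167 by edgeR). The Stat5a-/- call was lost without wt replicate 2, wt replicate 3 or Stat5a-/- replicate 3, and the call between the knockout lines without replicate 1 or 2 of either line, with adjusted p of up to 0.127 and 0.0855 over all edgeR and DESeq2 alternatives. With the summed T-cell markers as a covariate, the log2 fold change of Bcr was 2.06 in Stat5b-/- against wt, 1.03 in Stat5a-/- against wt and 1.03 between the knockout lines, and its adjusted p by edgeR was 0.0622, 0.0814 and 0.0638.

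The ratio of Abl1 to Bcr on reads per kilobase was 1.07, 1.17 and 1.01 in wt, 1.20, 1.22 and 1.09 in Stat5a-/- and 1.18, 1.37 and 1.60 in Stat5b-/-. It was highest in Stat5b-/- replicates 2 and 3, and all Stat5b-/- libraries were above wt, the nearest by 1.18 to 1.17. The log2 ratio was 0.34 higher in Stat5b-/- than in wt (SE 0.14, exact permutation p = 0.1, adjusted 0.20), 0.11 higher in Stat5a-/- than in wt (SE 0.08, exact permutation p = 0.2, adjusted 0.24) and 0.23 higher in Stat5b-/- than in Stat5a-/- (SE 0.14, exact permutation p = 0.3, adjusted 0.30).

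**Figure D3:**
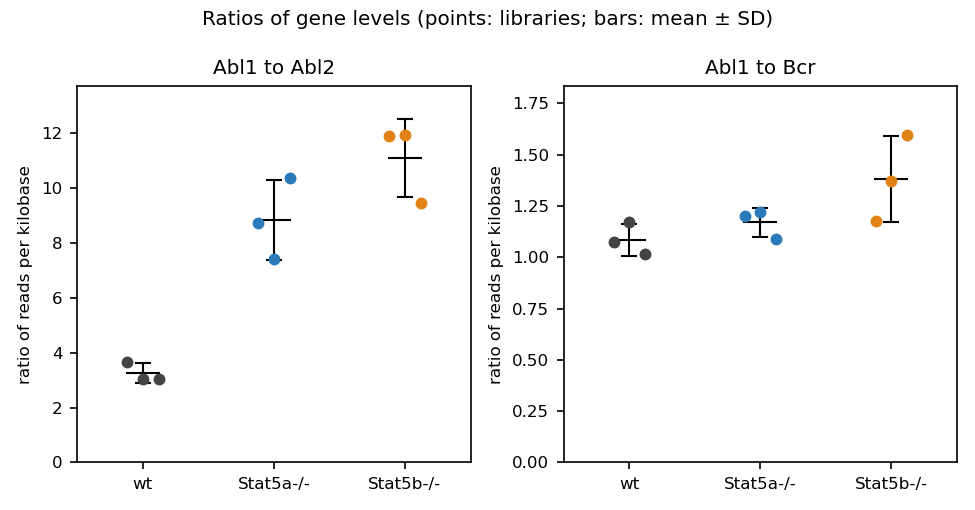
Ratio of reads per kilobase of Abl1 to Abl2 (left) and of Abl1 to Bcr (right) in each library of the 3 lines, with points for libraries and bars for the mean ± SD. Abl1 to Abl2 is 3.25 ± 0.354 in wt, 8.83 ± 1.47 in Stat5a-/- and 11.1 ± 1.42 in Stat5b-/-, while Abl1 to Bcr stays between 1.01 and 1.60 in the 9 libraries.

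Abl1 and Bcr have a GC content of 56.2% and 57.7% in their longest transcripts, against a median of 49.6% over the genes tested, and both varied within a line, with replicate 3 the highest in Stat5a-/- and the lowest in Stat5b-/-. With an offset for GC content in each library, the log2 fold change of Abl1 was 1.67 in Stat5b-/- against wt, 0.55 in Stat5a-/- against wt and 1.12 between the knockout lines, and that of Bcr was 1.37, 0.45 and 0.92, all past an adjusted p of 0.05 by edgeR. The genes with the profile nearest to Abl1 over the 9 libraries were Cotl1, Sigirr and Carmil2, with a root mean square difference of centred log2 normalized CPM of 0.107, 0.117 and 0.131. Those nearest to Bcr were Rai1 (0.0682), Carmil2 (0.0957) and Pgghg (0.110). The GC content of these 5 genes was 56.5% to 60.9%. They were picked by likeness to Abl1 or Bcr in these same libraries, and the part of GC content in these profiles was not tested.

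Among the adaptors that carry the signal forward, Crkl (ENSMUSG00000006134.3, chromosome 16 from 17451987 to 17486255) had 137, 134 and 130.0 normalized CPM in wt, 137, 124 and 142 in Stat5a-/- and 177, 175 and 143 in Stat5b-/-. All Stat5b-/- libraries were above the others, replicate 3 only by 142.8 to 142.5. Its log2 fold change was 0.31 in Stat5b-/- against wt (SE 0.11, adjusted p = 0.0299 by edgeR), 0.30 in Stat5b-/- against Stat5a-/- (SE 0.11, adjusted p = 0.0455 by edgeR) and 0.01 in Stat5a-/- against wt (SE 0.11, adjusted p = 0.959 by edgeR). The first call held in 5 and the next in 4 of 17 alternatives. Over these the log2 fold change lay between 0.23 and 0.55 with adjusted p of up to 0.274 by edgeR in Stat5b-/- against wt, and between 0.23 and 0.41 with adjusted p of up to 0.189 by edgeR against Stat5a-/-. Both calls were lost with the replicate block, with DESeq2, with the T-cell covariate, and without any 1 of the wt libraries, Stat5a-/- replicates 1 and 2 or Stat5b-/- replicates 1 and 2.

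Grb2 (ENSMUSG00000059923.13, chromosome 11 from 115644045 to 115708597) had 92.9, 90.2 and 87.5 normalized CPM in wt, 101.0, 100.7 and 101.3 in Stat5a-/- and 106.3, 108.0 and 114.9 in Stat5b-/-. The lines did not overlap, but only the outer pair passed the test. The log2 fold change was 0.28 in Stat5b-/- against wt (SE 0.09, adjusted p = 0.0162 by edgeR), a call that held in 12 of 17 alternatives and was lost without wt replicate 2 or 3, at adjusted p of 0.0515 and 0.0802 by edgeR. The others that lost it were the replicate block (0.28, adjusted p = 0.0526 by edgeR), no filter on low counts (0.26, adjusted p = 0.121 by edgeR) and the T-cell covariate (0.33, adjusted p = 0.426 by edgeR). The log2 fold change of Grb2 was 0.16 in Stat5a-/- against wt (adjusted p = 0.164 by edgeR) and 0.12 between the knockout lines (adjusted p = 0.308 by edgeR), where it was 0.21 with the GC offset (adjusted p = 0.0366 by edgeR). Of the 50-base stretches of its transcripts, 7.54% also occur in Gm12791 or Gm13542, so a part of its reads may not be counted.

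Gab2 (ENSMUSG00000004508.6, chromosome 7 from 97081586 to 97308946) had 65.0, 54.5 and 62.3 normalized CPM in wt, 43.1, 43.7 and 53.0 in Stat5a-/- and 52.9, 57.8 and 44.3 in Stat5b-/-. The Stat5a-/- libraries were below wt, the nearest at 53.0 against 54.5, and the Stat5b-/- libraries overlapped both other lines. The log2 fold change was -0.38 in Stat5a-/- against wt (SE 0.13, adjusted p = 0.0334 by edgeR), a call that held in 11 of 17 alternatives and was lost without wt replicate 1 or 3 or Stat5a-/- replicate 1 or 2, at adjusted p of 0.1004, 0.102, 0.112 and 0.106 by edgeR. It was also lost with the replicate number as a block (-0.38, adjusted p = 0.0723 by edgeR) and with the T-cell covariate, where the log2 fold change was -0.011 (adjusted p = 0.977 by edgeR). In Stat5b-/- against wt it was -0.23 (SE 0.13, adjusted p = 0.162 by edgeR), and 0.43 with the T-cell covariate.

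Sos1, the exchange factor that GRB2 brings to RAS (ENSMUSG00000024241.6, chromosome 17 from 80393752 to 80480453), was the 1 gene of the group that fell in Stat5b-/-. It had 158, 161 and 168 normalized CPM in wt, 159, 164 and 165 in Stat5a-/- and 115.6, 114.1 and 105.6 in Stat5b-/-. The Stat5b-/- libraries were below all others, while wt and Stat5a-/- overlapped. Sos1 was 1.45-fold lower in Stat5b-/- than in wt (log2 fold change -0.54, SE 0.09, adjusted p = 2.37e-04 by edgeR) and 1.45-fold lower than in Stat5a-/- (log2 fold change -0.54, SE 0.09, adjusted p = 4.00e-04 by edgeR). In Stat5a-/- against wt its adjusted p was 0.994 by edgeR, and the sign of its log2 fold change, which lay between -0.04 and 0.15 in the alternatives, varied with the processing, -0.02 with DESeq2 included. Of the 17 alternatives, the call in Stat5b-/- against wt was lost only with the summed T-cell markers as a covariate, whose ranges do not overlap between the lines. There the log2 fold change of Sos1 was -0.54, with an adjusted p of 0.193 by edgeR. The 677 tested genes of its chromosome had a median log2 fold change of 0.14 in Stat5b-/- against wt, 0.53 in Stat5a-/- against wt and -0.42 in Stat5b-/- against Stat5a-/-. The part of this shift in the values of Sos1 was not tested.

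Cbl, the ubiquitin ligase (ENSMUSG00000034342.9, chromosome 9 from 44142976 to 44234049), had 248, 283 and 286 normalized CPM in wt, 313, 293 and 289 in Stat5a-/- and 369, 352 and 338 in Stat5b-/-. The Stat5b-/- libraries were the highest, and the Stat5a-/- libraries were just above wt. The log2 fold change was 0.37 in Stat5b-/- against wt (SE 0.09, adjusted p = 0.00565 by edgeR), 0.13 in Stat5a-/- against wt (SE 0.09, adjusted p = 0.316 by edgeR) and 0.24 between the knockout lines (SE 0.09, adjusted p = 0.0621 by edgeR). The last passed with DESeq2 (0.23, adjusted p = 0.0495) and with the GC offset (0.21, adjusted p = 0.0468 by edgeR). With the summed T-cell markers as a covariate, that of Stat5b-/- against wt was 0.09 (adjusted p = 0.850 by edgeR).

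Dok1, which restrains RAS signalling (ENSMUSG00000068335.6, chromosome 6 from 83030934 to 83033471), was higher in both knockout lines than in wt. It had 8.06, 6.92 and 7.80 normalized CPM in wt, 19.5, 15.3 and 20.2 in Stat5a-/- and 20.6, 17.6 and 17.6 in Stat5b-/-, on 127 to 301 reads in a library. Every knockout library was above every wt library, and the knockout lines overlapped. Dok1 was 2.45-fold higher in Stat5b-/- (log2 fold change 1.29, SE 0.15, adjusted p = 1.00e-05 by edgeR) and 2.42-fold higher in Stat5a-/- than in wt (log2 fold change 1.27, SE 0.15, adjusted p = 1.41e-05 by edgeR). Between the knockout lines its log2 fold change was 0.02 (SE 0.14, adjusted p = 0.922 by edgeR). The 694 tested genes of its chromosome had a median log2 fold change of 0.22 in Stat5b-/- and 0.09 in Stat5a-/- against wt. With the T-cell covariate the log2 fold change of Dok1 against wt was 1.39 in Stat5b-/- (adjusted p = 0.0636 by edgeR) and 1.32 in Stat5a-/- (adjusted p = 0.00454 by edgeR).

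Dok2 (ENSMUSG00000022102.13, chromosome 14 from 70766036 to 70778495) was the gene with the fewest reads, 30 to 53 in a library. It had 2.79, 1.52 and 1.73 normalized CPM in wt, 3.01, 4.23 and 3.52 in Stat5a-/- and 3.15, 2.32 and 4.04 in Stat5b-/-. Wt replicate 1 stood above the other wt libraries and within the range of Stat5b-/-, and the Stat5a-/- libraries were all above wt. The log2 fold change was 0.84 in Stat5a-/- against wt (SE 0.28, adjusted p = 0.0322 by edgeR), which held in 10 of 17 alternatives, and 0.66 in Stat5b-/- against wt (SE 0.28, adjusted p = 0.0702 by edgeR). Without wt replicate 1 the latter was 0.96 (adjusted p = 0.0185 by edgeR), without Stat5b-/- replicate 2 it was 0.85 (adjusted p = 0.0361 by edgeR), and without a filter on low counts it was 0.65 (adjusted p = 0.0453 by edgeR). The Stat5a-/- call was lost without wt replicate 2, wt replicate 3, Stat5a-/- replicate 2 or Stat5a-/- replicate 3, at adjusted p of 0.125, 0.111, 0.128 and 0.0616 by edgeR. It was also lost with the replicate block (0.86, adjusted p = 0.0502 by edgeR), the GC offset (0.65, adjusted p = 0.0739 by edgeR) and the T-cell covariate (0.91, adjusted p = 0.262 by edgeR).

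**Figure D4:**
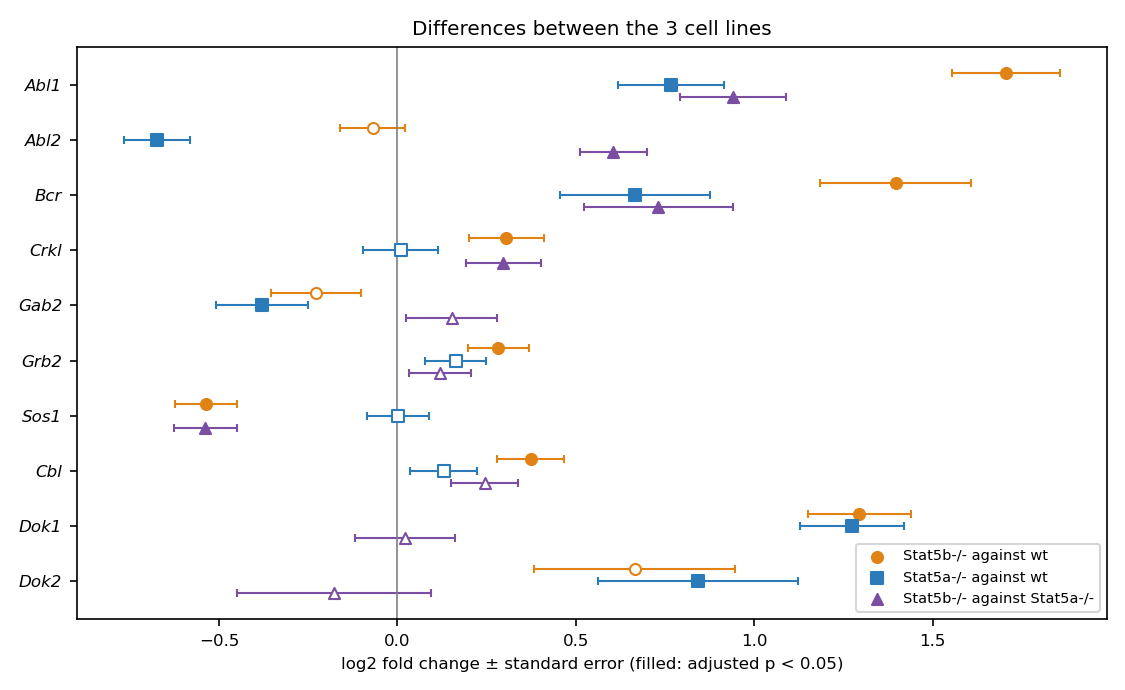
Log2 fold change (horizontal axis, ± standard error) of the 10 genes in Stat5b-/- against wt (circles), Stat5a-/- against wt (squares) and Stat5b-/- against Stat5a-/- (triangles), filled where the adjusted p was under 0.05. Abl1 and Bcr are highest in Stat5b-/- at 1.71 and 1.40, Dok1 is near 1.29 and 1.27 in both knockout lines, Abl2 is low in Stat5a-/- at -0.67 and Sos1 in Stat5b-/- at -0.54.

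Levels were compared between genes as reads per kilobase of exon on the normalized CPM scale. In wt, Crkl (34.6 ± 0.875, SD, n = 3) and Grb2 (30.9 ± 0.926) led, followed by Cbl (22.1 ± 1.70), Abl1 (21.5 ± 2.25), Bcr (19.9 ± 2.72) and Sos1 (18.2 ± 0.606). Each neighbour in the run from Cbl to Sos1 differed from the next by less than the larger of their SDs. Gab2 (9.82 ± 0.878), Abl2 (6.62 ± 0.106), Dok1 (3.84 ± 0.302) and Dok2 (0.694 ± 0.235) came below, each apart from the next by more than their SDs. In Stat5b-/-, Abl1 (70.2 ± 11.7) and Bcr (52.4 ± 15.6) stood first on the same scale, ahead of Crkl (42.7 ± 4.98) and Grb2 (37.6 ± 1.55), with Bcr and Crkl apart by less than the SD of Bcr. In Stat5a-/-, Abl1 (36.6 ± 6.18), Crkl (34.8 ± 2.52), Grb2 (34.6 ± 0.119) and Bcr (31.6 ± 7.40) lay within the SD of Bcr. These levels divide by the whole exon length, and oncogene reads would fall on only a part of it in Abl1 and Bcr.

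A STAT motif was looked for in the RefSeq promoters (GRCm38.p6), each of 300 bases from 250 before to 50 after a gene's start. The letters TTCNNNGAA, which read the same on both strands, were in 0 of the 9 promoters listed for 7 of the 10 genes and in 8.30% of 32851 promoters of all genes. No match says only that these letters are not in this window.

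Of 38 other genes of BCR/ABL signalling, 17 rose, 4 fell and 17 did not pass the test in Stat5b-/- against wt, with a median log2 fold change of 0.27. Called in either direction were 55.3% of these genes and 46.2% of all genes tested (24.2% higher and 22% lower). In Stat5a-/- against wt 11 rose, 7 fell and 20 did not pass, with a median of 0.13. Called were 47.4% of them against 36.0% of all genes (19.8% higher and 16.3% lower). Between the knockout lines 10 were higher in Stat5b-/-, 1 was lower and 27 did not pass, with a median of 0.18. Called were 28.9% of them against 33.9% of all genes (16.4% higher and 17.5% lower). Past a 2-fold change as well were 6 higher genes in Stat5b-/-, 1 higher and 1 lower in Stat5a-/-, and 2 higher between the knockout lines, where the shares of all genes were those given above. Beside these, 16 of the 17 T-cell markers rose in Stat5b-/- (24.2% of all genes) and 8 in Stat5a-/- (19.8% of all genes) against wt, and between the knockout lines 15 of them were higher in Stat5b-/- and 1 was lower (16.4% and 17.5% of all genes).

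Among these 38 genes the largest rise in Stat5b-/- was that of Vav3, an exchange factor of the VAV family, which was at 1.75 ± 0.37 in wt, 1.43 ± 0.73 in Stat5a-/- and 12.9 ± 2.01 in Stat5b-/- (normalized CPM, mean ± SD, n = 3). Its log2 fold change was 2.86 against wt (SE 0.26, adjusted p = 1.63e-06 by edgeR) and 3.14 against Stat5a-/- (SE 0.29, adjusted p = 2.71e-06 by edgeR). Grap2, an adaptor related to GRB2, rose in both knockout lines, from 11.02 ± 2.02 normalized CPM in wt to 37.8 ± 2.26 in Stat5a-/- (log2 fold change 1.77, SE 0.14, adjusted p = 5.44e-07 by edgeR) and 44.8 ± 4.91 in Stat5b-/- (log2 fold change 2.02, SE 0.14, adjusted p = 1.33e-07 by edgeR). Abr, the paralog of Bcr, rose from 43.5 ± 3.64 in wt to 116 ± 9.73 in Stat5b-/- (log2 fold change 1.41, SE 0.11, adjusted p = 3.32e-07 by edgeR). Abi2, which encodes an ABL-interacting protein, was at 96.6 ± 11.04 in wt, 38.5 ± 5.15 in Stat5a-/- and 86.6 ± 4.28 in Stat5b-/-. It fell in Stat5a-/- against wt (log2 fold change -1.33, SE 0.12, adjusted p = 1.85e-06 by edgeR) and was higher in Stat5b-/- than in Stat5a-/- (1.17, SE 0.12, adjusted p = 9.99e-06 by edgeR).

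Paralogs of other members, chosen for that relation after their values were seen, are given beside them. Abr also rose in Stat5a-/- against wt (log2 fold change 0.79, adjusted p = 8.25e-05 by edgeR), as Bcr did. Of the paralogs of Gab2, Gab1 fell by 0.76 on the log2 scale in Stat5b-/- and by 0.44 in Stat5a-/- (adjusted p = 5.02e-04 and 0.0214 by edgeR), while Gab3 rose in Stat5b-/- (log2 fold change 1.01, adjusted p = 0.00247 by edgeR) and had a log2 fold change of 0.09 in Stat5a-/- (adjusted p = 0.795 by edgeR). Grap, related to Grb2 as Grap2 is, rose in Stat5b-/- (log2 fold change 0.76, adjusted p = 3.42e-04 by edgeR) and had a log2 fold change of 0.29 in Stat5a-/- (adjusted p = 0.102 by edgeR). Sos2 fell in both knockout lines, by 0.32 on the log2 scale in Stat5b-/- and by 0.58 in Stat5a-/- (adjusted p = 0.0109 and 2.37e-04 by edgeR). Cblb rose in both, with log2 fold changes of 0.58 and 0.44 (adjusted p = 1.66e-04 and 0.00187 by edgeR). Dok3 rose in Stat5b-/- (log2 fold change 1.18, adjusted p = 2.40e-04 by edgeR) and had a log2 fold change of 0.51 in Stat5a-/- (adjusted p = 0.0516 by edgeR). Crk fell in Stat5a-/- by 0.40 on the log2 scale (adjusted p = 0.00933 by edgeR), and its log2 fold change in Stat5b-/- was -0.22 (adjusted p = 0.107 by edgeR).

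**Figure D5:**
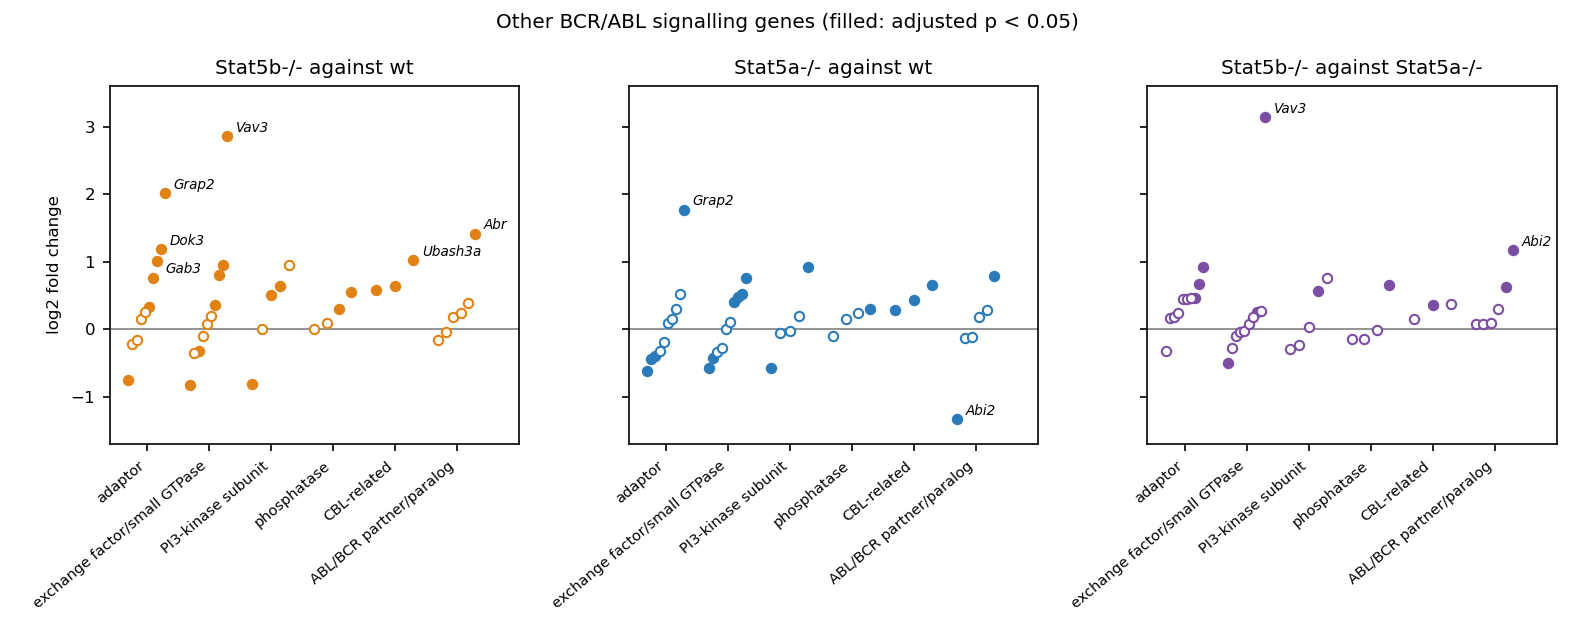
Log2 fold change (vertical axis) of 38 other BCR/ABL signalling genes in the 3 comparisons, by role along the horizontal axis, filled where the adjusted p was under 0.05, with names for genes past a 2-fold change. Vav3 is the highest point in Stat5b-/- against wt (2.86) and against Stat5a-/- (3.14), Grap2 the highest in Stat5a-/- against wt (1.77), and Abi2 the lowest there (-1.33).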

How the data were processed

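RNA-seq was measured in 9 libraries, with technical replicates from 1 line of each genotype. Per the labels and methods, mRNA libraries were sequenced as single-end reads of 50 bp, and the authors trimmed them with Trimmomatic, mapped them with STAR to GENCODE M13 (GRCm38) and deposited raw counts for each gene from featureCounts 1.5.1, without a strand setting. Groups came from sample titles. The description text of the knockout samples, which names wt lines, conflicts with these. Symbols came from GENCODE M21 and named 50376 of 50686 genes.

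The quasi-likelihood test of edgeR 4.0.16 (R 4.3.3; TMM, filterByExpr, glmQLFit, glmQLFTest) was run on all 9 libraries and 13852 genes, with Benjamini-Hochberg adjustment over these. Each SE is the size of the log2 fold change divided by the root of F. Ratios were compared by exact permutation. The SEs and p-values cover the spread between technical replicates, which was larger than counting error. Reads had no molecular identifiers.

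Named were all 10 genes, the knocked-out genes, up to 3 signalling genes per direction and comparison past an adjusted p of 0.05 and a 2-fold change with the largest change, and the 3 profiles nearest to Abl1 and to Bcr. Rag1, Rag2, Cd2 and further paralogs of members were named outside this rule, after their values were seen. The members and lists were chosen with earlier results of these data known. Alternatives were DESeq2 1.42.0, RLE factors, no count filter or a mean count of 10 or more, a fit of the compared lines alone, each library left out, the replicate number as a block, the log2 sum of 17 T-cell markers as a covariate, a 2-fold threshold and, chosen after seeing the data, a GC offset (loess, span 0.5). Steps were tested on simulated data.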

Additional observations from a re-analysis of the deposited data

How the results depend on the processing

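Of the refits of single member changes under 17 alternatives, 423 kept direction and side of the threshold, 56 lost the call, 6 gained it and 25 changed sign. Sign changes concerned differences that had not passed the test, and their cause was not tested. In Stat5a-/- against wt the log2 fold change of Crkl was -0.00997 with DESeq2, -0.0052 with RLE factors, -0.0101 without a filter and -0.00225 with only the 2 lines compared. That of Sos1 was -0.0183, -0.0134, -0.0176 and -0.0103 in the same order and -0.00169 with the T-cell covariate, and that of Cbl was -0.0276 with the covariate. Gab2 was at 0.43 with it in Stat5b-/- against wt, and Dok2 at 0.0163 with the GC offset between the knockout lines. Leaving out 1 library gave -0.063 to 0.0539 for Crkl and -0.0378 to 0.0255 for Sos1 in Stat5a-/- against wt, and -0.10 to 0.10 for Dok1 and -0.38 to 0.00461 for Dok2 between the knockout lines. With the T-cell covariate, members called were 1 higher and 0 lower in Stat5b-/- against wt, 2 and 1 in Stat5a-/- against wt and 2 and 1 between the knockout lines, and signalling genes 5 and 0, 7 and 4, and 6 and 0. Over all 13852 genes the calls then fell from 3348 and 3049 to 710 and 670, from 2739 and 2254 to 1694 and 1470, and from 2269 and 2429 to 894 and 1196. In the main fit, without the covariate, a fold change above 2 gave 3 and 0, 1 and 0, and 0 and 0 members, and 6 and 0, 1 and 1, and 2 and 0 signalling genes. The GC offset gave, between the knockout lines, 6 higher and 1 lower members, 16 higher and 2 lower signalling genes, and 3284 and 2745 of all genes. Leaving out 1 library gave 4 to 6 higher and 1 to 1 lower members in Stat5b-/- against wt, 2 to 4 and 1 to 2 in Stat5a-/- against wt and 2 to 4 and 1 to 1 between the knockout lines. Signalling genes were then 14 to 17 and 4 to 6, 8 to 11 and 4 to 8, and 7 to 12 and 0 to 1, and all genes 2767 to 3414 and 2544 to 3423, 2205 to 2932 and 1755 to 2597, and 1647 to 2304 and 2059 to 2482. Deviations from the line means had a mean correlation across genes of -0.0877 over 9 pairs of libraries with equal replicate number (-0.445 to 0.216). Over the 18 other pairs it was 0.0438 (-0.426 to 0.391). Whether libraries of equal number share more than that number was not tested. The replicate block lost 5 member calls: 4 in place of 6 members were higher in Stat5b-/- against wt, 3 in place of 4 were higher and 1 in place of 2 lower in Stat5a-/- against wt, and 3 in place of 4 were higher between the knockout lines. Over all genes these counts were 3016 in place of 3348, 2420 in place of 2739, 1893 in place of 2254 and 1802 in place of 2269.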
